A study of Homo sapiens with 15 samples.

Results

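The S100 genes encode small calcium-binding proteins, and 9 of them were followed in Caco-2 cells exposed to a dishwasher rinse aid: S100P, S100A2, S100A4, S100A6, S100A10, S100A11, S100A13, S100A14 and S100A16. They were found by symbol among the 60557 Ensembl genes shared by all 15 count files, and 8 of the 9 passed the filter on low counts that left 13157 genes for testing. The set was chosen by its library-scaled counts in the 3 groups, S100P being among the strong rises against unexposed cells at both dilutions, so the comparisons with control are given as descriptions, without p-values for these genes. Caco-2 is a human colorectal carcinoma line that forms a polarised, enterocyte-like sheet. The groups were monolayers exposed for 24 h to rinse aid at 1:10000, monolayers exposed for 24 h at 1:40000, and unexposed control monolayers, with 5 polyadenylated RNA libraries in each. All 3 groups were cells of 1 line. The labels do not say whether the replicates of a group were cultured separately, and the p-values then reflect the variation among these libraries, which may be technical.

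S100 proteins are built from a pair of EF-hand calcium-binding loops and mostly work as dimers. When calcium rises, the dimer opens a hydrophobic face that docks onto target proteins such as annexins, myosin heavy chains and scaffold proteins. Some members also leave the cell and bind surface receptors, among them the receptor for advanced glycation end products. Most of the genes sit together in the epidermal differentiation region of the long arm of chromosome 1, whereas S100P lies apart on chromosome 4. In the intestine S100P is known as a gene that is low in normal epithelium and high in many carcinomas, and S100A10 as the partner that carries annexin A2 to the membrane.

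RefSeq promoter windows on GRCh38.p14 were at hand for all 9 genes. The 250 bases before the start are shown for S100P, the member furthest above control, and for S100A4 and S100A10, lower than control at both dilutions, each of which has 1 RefSeq start. They lie at chr4:6693628-6693877 (plus strand) for S100P, chr1:153545807-153546056 (minus strand) for S100A4 and chr1:151993860-151994109 (minus strand) for S100A10. Capitals mark the TATA box letters TATAAA and the GC box letters GGGCGG.
S100P: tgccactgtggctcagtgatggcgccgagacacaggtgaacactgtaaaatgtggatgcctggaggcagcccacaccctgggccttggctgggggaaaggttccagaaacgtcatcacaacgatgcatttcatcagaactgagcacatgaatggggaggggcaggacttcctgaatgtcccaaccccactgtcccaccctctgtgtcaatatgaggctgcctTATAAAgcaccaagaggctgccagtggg
S100A4: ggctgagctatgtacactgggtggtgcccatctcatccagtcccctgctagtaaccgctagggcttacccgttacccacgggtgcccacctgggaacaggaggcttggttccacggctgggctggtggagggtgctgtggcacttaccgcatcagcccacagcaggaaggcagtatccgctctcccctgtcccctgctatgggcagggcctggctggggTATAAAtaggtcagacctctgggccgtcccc
S100A10: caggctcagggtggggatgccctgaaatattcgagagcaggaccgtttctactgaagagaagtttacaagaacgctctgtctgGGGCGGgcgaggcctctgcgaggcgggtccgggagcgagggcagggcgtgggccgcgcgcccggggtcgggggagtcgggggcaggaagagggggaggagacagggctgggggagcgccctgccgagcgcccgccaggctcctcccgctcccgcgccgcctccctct
The TATA box letters begin 28 bases before the start of S100P and 31 bases before that of S100A4, and S100A10 holds GC box letters beginning 167 bases before its start and no TATA box letters. Searched on both strands, the TATA box letters occurred in 10.7% and the GC box letters in 42.6% of 35116 human RefSeq promoters of the same length. The S100P window was 55.6% G and C with 4 CpG pairs, S100A4 62.8% with 7 and S100A10 71.2% with 24, beside a median of 58.0% with 11 over all promoters. The letters TGATGNAAT, a joint C/EBP and ATF motif, occurred once, on the opposite strand of S100P between 124 and 116 bases before its start, and in 0.888% of all promoters. None of the 3 windows held the letters TGANTCA of AP-1, TGACGTCA of the CRE, CCAAT of NF-Y, GGAATG of TEAD or CACGTG of the E-box, found in 6.57, 1.65, 32.01, 11.9 and 6.34% of all promoters in that order. A match describes letters in a window and is not evidence of binding.

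Library totals ran from 5489425 to 9555632 counts at 1:10000, from 2551839 to 172092447 at 1:40000 and from 4333226 to 14230853 in control. Per the file headers, all 10 rinse aid files were made with HISAT2 and the 5 control files with RNA STAR, on gene annotations of different size, so in every comparison with control the exposure cannot be told apart from these differences in processing. The comparison of 1:10000 with 1:40000 shares both aligner and annotation. All levels below are counts divided by the library size after TMM correction, in CPM. Of 10 epithelial markers, 9 reached 1 CPM in at least 1 group, and KRT20 held 5 counts in all. Their summed level ranged from 11560.5 to 13695 CPM at 1:10000, from 9850 to 11105 CPM at 1:40000 and from 10348 to 11788 CPM in control. KRT8 and KRT18 carried most of that sum and were higher at 1:10000 than in both other groups. Of the 9 tested, 6 (VIL1, CDH1, CDX2, HNF4A, APOA1 and ALPI) were called lower at 1:10000 against both, and EPCAM was called against neither. Over all tested genes, 36.2% were called lower at 1:10000 against control and 29.0% against 1:40000. The share of genes lower against both was not counted. The intestinal regulator CDX2, for example, averaged 63.0 ± 7.21 CPM at 1:10000, 192 ± 9.69 CPM at 1:40000 and 172 ± 15.5 CPM in control. Of 10 markers of leukocytes, mesenchymal, endothelial and squamous cells, 4 reached 1 CPM, PTPRC was at 0, and the summed level was 39.98 to 53.7 CPM at 1:10000, 78.6 to 126 CPM at 1:40000 and 101 to 121 CPM in control. COL1A1 made up most of that sum, with 35.3 ± 4.82 CPM at 1:10000, 81.2 ± 18.5 CPM at 1:40000 and 92.2 ± 10.9 CPM in control, and VIM ran the other way, with 3.71 ± 0.757, 1.28 ± 0.441 and 0.513 ± 0.418 CPM in that order. The part of these shifts in the results was not tested.

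S100P, a secreted and cytoplasmic member that binds ezrin and the receptor for advanced glycation end products, was low in unexposed cells and higher in every exposed library. Its levels were 67.7, 74.3, 47.3, 54.9 and 44.9 CPM at 1:10000, 22.3, 17.2, 15.9, 20.2 and 19.3 CPM at 1:40000, and 2.20, 2.94, 3.77, 2.45 and 1.29 CPM in control. No library of one group overlapped another group, and the lowest library at 1:10000 lay above the highest at 1:40000. The gene (ENSG00000163993, protein-coding, chr4:6693069-6697170, plus strand, GENCODE 29 on GRCh38) rested on 289 to 579 counts per library at 1:10000, 45 to 3866 at 1:40000 and 10 to 36 in control, so the control level is the least precise. Means were 57.8 ± 12.8 CPM at 1:10000, 19.0 ± 2.52 CPM at 1:40000 and 2.53 ± 0.916 CPM in control (SD, n = 5 each). The log2 fold change against control was 4.54 ± 0.20 (SE) at 1:10000 and 2.96 ± 0.20 at 1:40000, with the same 5 controls in both. Ordered by log2 fold change among 13157 genes, S100P was 270th from the top at 1:10000 and 350th at 1:40000. In bulk RNA, more transcript per cell and more cells with the transcript cannot be told apart.

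The dilutions, whose concentrations differ 4-fold, were also compared with each other, a contrast that the choice of S100P did not name. The levels of S100P at both dilutions did enter that choice, so its p-value and rank here are not an independent test. S100P rose at 1:10000 relative to 1:40000 by a log2 fold change of 1.58 ± 0.14 (SE), which is a 3.00-fold difference, with an adjusted p of 1.01e-08 (quasi-likelihood test in edgeR, Benjamini-Hochberg adjustment over all 13157 genes). The range of 2 SE either side ran from 1.30 to 1.87. It was 189th from the top of the genes in this comparison, and all 5 libraries at 1:10000 were above all 5 at 1:40000. At 1:40000, replicate 1, the deepest library, was the highest of its group for S100P, and without it the log2 fold change was 1.67 ± 0.15.

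**Figure D1:**
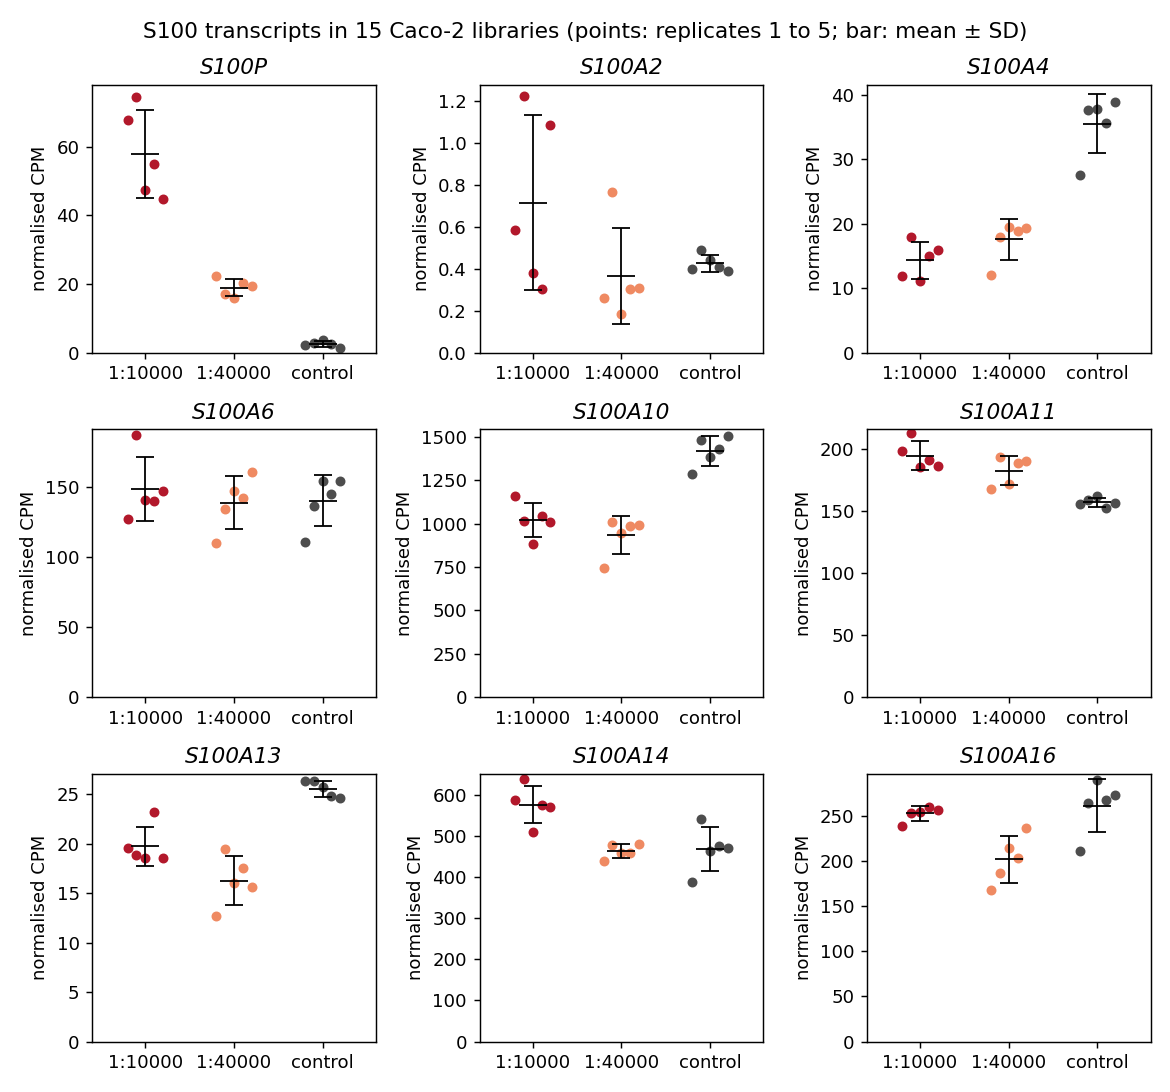
Each panel shows 1 S100 gene, with TMM-normalised CPM on the vertical axis (from 0) and the 1:10000, 1:40000 and control groups from left to right; points are the 5 libraries of a group in replicate order, and bars are mean ± SD. S100P separates all 3 groups (57.8, 19.0 and 2.53 CPM), S100A4 and S100A10 lie lower in both rinse aid groups than in control, and S100A6 overlaps across all groups.

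S100A10 is the member that has lost calcium binding and stays in its open form, bound to annexin A2 and able to hold plasminogen at the cell surface. It was the most abundant S100 transcript in all 3 groups and was lower in both rinse aid groups than in control. Its levels were 1157, 1014, 882, 1045 and 1011 CPM at 1:10000, 742, 1010.2, 945, 988 and 993 CPM at 1:40000, and 1287, 1483, 1386, 1428 and 1504 CPM in control. Every rinse aid library was below every control library, and replicate 1 at 1:40000 stood below its own group. Means were 1022 ± 98.2 CPM at 1:10000, 935 ± 111 CPM at 1:40000 and 1418 ± 86.5 CPM in control (SD, n = 5 each), log2 fold changes against control of -0.47 ± 0.08 and -0.60 ± 0.08 (SE) at 1:10000 and 1:40000. The dilutions overlapped, with a log2 fold change of 0.13 ± 0.08 and an adjusted p of 0.158. The range of 2 SE, from -0.03 to 0.28, leaves room for a small difference in either direction.

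S100A4, which binds the heavy chain of non-muscle myosin and is known from invasive and mesenchymal cells, was the member furthest below control. Its levels were 11.8, 17.9, 11.1, 14.95 and 15.99 CPM at 1:10000, 12, 18.0, 19.5, 18.9 and 19.4 CPM at 1:40000, and 27.6, 37.7, 37.7, 35.6 and 38.9 CPM in control. The dilutions overlapped each other, and neither overlapped control. Means of 14.4 ± 2.86 CPM at 1:10000 and 17.6 ± 3.17 CPM at 1:40000 stood against 35.5 ± 4.59 CPM in control (SD, n = 5 each), log2 fold changes against control of -1.33 ± 0.15 and -1.05 ± 0.14 (SE). Between the dilutions the log2 fold change was -0.28 ± 0.15 with an adjusted p of 0.126. The call changed with 1 library: without replicate 1 at 1:40000, which held 12 CPM, it was -0.44 ± 0.13 with an adjusted p of 0.00404, lower at 1:10000.

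S100A13 and S100A11 lay on opposite sides of control. S100A13, which takes part in the export of fibroblast growth factor 1 without a signal peptide, held 19.5, 18.9, 18.5, 23.2 and 18.6 CPM at 1:10000, 12.7, 19.5, 16.1, 17.5 and 15.7 CPM at 1:40000, and 26.4, 26.3, 25.7, 24.8 and 24.7 CPM in control. All 10 rinse aid libraries were below all 5 controls, with means of 19.8 ± 1.95 CPM at 1:10000, 16.3 ± 2.51 CPM at 1:40000 and 25.6 ± 0.807 CPM in control (SD, n = 5 each). The log2 fold change was -0.37 ± 0.11 (SE) at 1:10000 and -0.70 ± 0.10 at 1:40000 against control. Between the dilutions it rose at 1:10000 by 0.33 ± 0.11 with an adjusted p of 0.00949, although replicate 2 at 1:40000, the shallowest library with 51 counts for the gene, overlapped the stronger dilution. With no filter on low counts the same difference was 0.27 with an adjusted p of 0.075. In GENCODE 29 its exons share 235 bases with S100A1 on the opposite strand, and no strand setting was stated, so reads from that stretch cannot be assigned to one of the genes. They also share 536 bases with AL162258.1 on the same strand, which held at most 3 counts per group.

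S100A11, a partner of annexin A1 in membrane repair and in growth control of epithelial cells, held 198, 212, 185, 191 and 186 CPM at 1:10000, 167, 193, 172, 188 and 190.4 CPM at 1:40000, and 155, 159, 162, 152 and 156 CPM in control. The controls lay below all rinse aid libraries, by a small margin at 1:40000. Means were 194 ± 11.3 CPM at 1:10000, 182 ± 11.8 CPM at 1:40000 and 157 ± 3.73 CPM in control (SD, n = 5 each), log2 fold changes against control of 0.31 ± 0.06 and 0.21 ± 0.06 (SE). The dilutions overlapped, with a log2 fold change of 0.10 ± 0.06 and an adjusted p of 0.142. Its named pseudogenes S100A11P1 and S100A11P2 held at most 1 count per group.

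S100A14 and S100A16, neighbours on chromosome 1 whose products bind each other, differed between the dilutions by nearly the same amount. S100A14 is an epithelial member found at cell borders, and its levels were 588, 638, 510.4, 574 and 569 CPM at 1:10000, 439.9, 479, 459, 459 and 479 CPM at 1:40000, and 388, 541, 463, 475 and 471 CPM in control. S100A16, a widely expressed member, held 239, 253, 254, 260.3 and 256 CPM at 1:10000, 168, 187, 214, 203 and 237 CPM at 1:40000, and 211, 264, 289, 267 and 273 CPM in control. For both genes the libraries at 1:10000 lay above all libraries at 1:40000, by a gap of less than 3 CPM for S100A16, and control overlapped both dilutions. S100A14 rose at 1:10000 relative to 1:40000 by a log2 fold change of 0.32 ± 0.07 (SE) with an adjusted p of 0.000429, and S100A16 rose by 0.32 ± 0.08 with an adjusted p of 0.00158. Against control, S100A14 was 0.30 ± 0.07 at 1:10000 and -0.02 ± 0.07 at 1:40000 on the log2 scale, and S100A16 was -0.05 ± 0.08 at 1:10000 and -0.37 ± 0.08 at 1:40000. S100A14 thus lay near control at 1:40000 and S100A16 near control at 1:10000.

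S100A6 and S100A2 did not separate the groups. S100A6, or calcyclin, a partner of the ubiquitin ligase adaptor CACYBP, averaged 148 ± 22.9 CPM at 1:10000, 139 ± 18.7 CPM at 1:40000 and 140 ± 18.1 CPM in control (SD, n = 5 each). Its libraries ranged from 127 to 187 CPM at 1:10000, from 110.0 to 160.4 CPM at 1:40000 and from 110.4 to 154 CPM in control, and the log2 fold change between the dilutions was 0.09 ± 0.11 (SE) with an adjusted p of 0.503. Changes larger than 0.32 or below -0.13 lay outside 2 SE. S100A2, a nuclear member best known from squamous and basal epithelium, held 5, 6, 3, 2 and 7 counts at 1:10000, 45, 2, 5, 3 and 3 counts at 1:40000 and 2, 5, 2, 6 and 3 counts in control. It did not pass the filter on low counts and was not tested, and its means of 0.715 ± 0.416 CPM at 1:10000, 0.364 ± 0.229 CPM at 1:40000 and 0.426 ± 0.0414 CPM in control overlapped.

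Between the dilutions, 4 of the 8 tested S100 genes (S100P, S100A13, S100A14 and S100A16) were called at an adjusted p under 0.05, all higher at 1:10000. Over all 13157 genes, 57.3% were called in this comparison, 28.3% higher and 29.0% lower, so a share of 4 in 8 is near the background. Groups did not overlap for 3 of the 8, all higher at 1:10000, against 40.3% of all genes in either direction and 20.5% higher. Without replicate 1 at 1:40000 the count was 5, S100A4 being added as lower. The median log2 fold change of the 8 was 0.22, and that of all genes was -0.01. S100P accounted for the one large value, since the other 7 lay between -0.28 and 0.33.

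**Figure D2:**
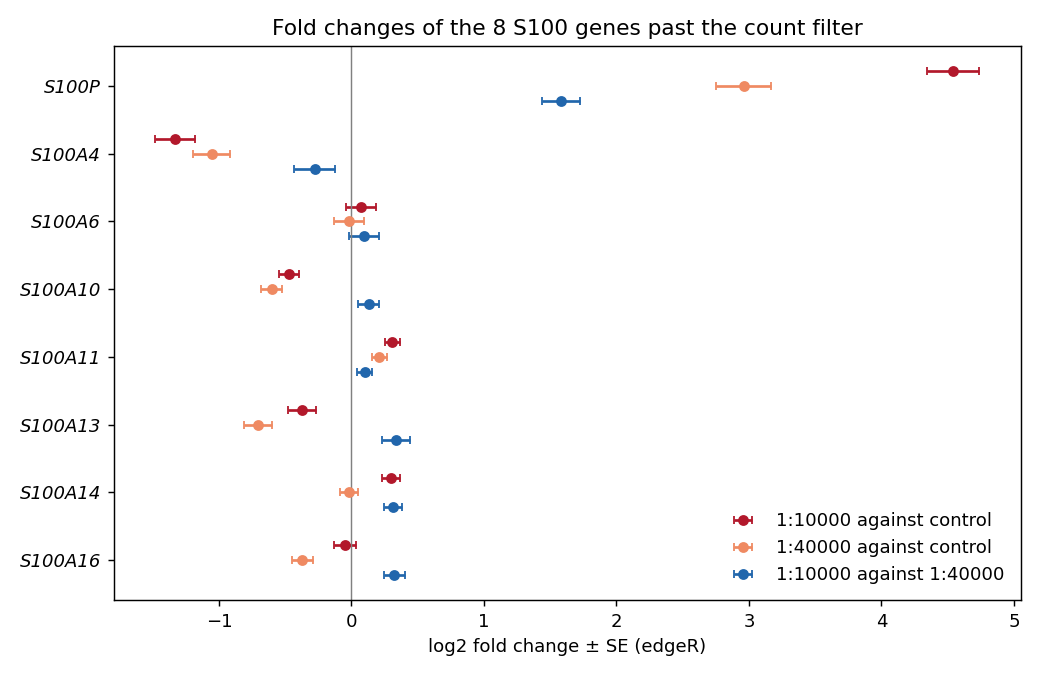
Log2 fold change ± SE (edgeR) on the horizontal axis for the 8 S100 genes past the count filter, with 1:10000 against control in red, 1:40000 against control in orange and 1:10000 against 1:40000 in blue. S100P lies far right in all 3 comparisons (4.54, 2.96 and 1.58), and S100A4 is lowest against control (-1.33 and -1.05).

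**Figure D3:**
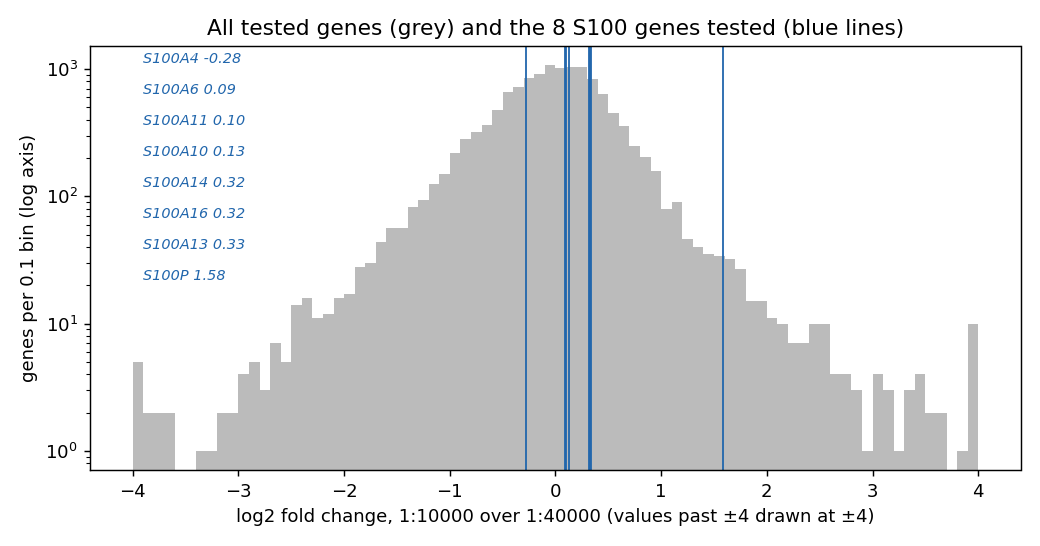
The grey histogram counts all 13157 tested genes by log2 fold change at 1:10000 over 1:40000 in bins of 0.1, with a log vertical axis and values past ±4 drawn at ±4; blue lines mark the 8 S100 genes, whose values are listed in the panel. S100P at 1.58 stands in the right tail, and the other 7 lie between -0.28 and 0.33, within the bulk.

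Against control, 6 of the 8 genes passed the same threshold at each dilution, 3 higher and 3 lower at 1:10000 and 2 higher and 4 lower at 1:40000. The background was 71.0% of genes called at 1:10000, 34.8% higher and 36.2% lower, and 52.1% at 1:40000, 26.1% higher and 26.0% lower, and since these comparisons chose the genes, nothing is read from the counts. Both comparisons use the same 5 control libraries. S100P and S100A11 were above control and S100A4, S100A10 and S100A13 below it in every library of both dilutions. For each dilution alone and in either direction, 57.8% of all genes did not overlap control at 1:10000 and 36.3% at 1:40000. The share of all genes apart from control at both dilutions in the same direction was not counted. The median log2 fold change of the 8 was 0.01 at 1:10000 and -0.19 at 1:40000, against -0.02 and -0.002 over all genes.

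On a scale of CPM per kilobase of merged exon, S100A10, S100A14 and S100A11 led in every group. That scale compares levels of different genes only roughly, since it joins all annotated exons and may exceed the length of the transcript present. S100A10 stood at 662 ± 63.6 at 1:10000, 606 ± 71.9 at 1:40000 and 919 ± 56.1 in control (SD, n = 5 each), and S100A14 at 451 ± 35.7, 363 ± 12.9 and 366 ± 42.5 for the groups in that order. S100A6 and S100A16 came next with means from 119 to 153 in all groups, and their ranges of mean ± SD overlapped in each group. Within libraries, S100A6 was above S100A16 in 2 of 5 at 1:10000, in 5 of 5 at 1:40000 and in 0 of 5 in control. S100P was sixth at 1:10000 with 45.2 ± 10.01 CPM per kilobase, seventh at 1:40000 with 14.8 ± 1.97 and eighth in control with 1.98 ± 0.716. At 1:40000 S100A4 stood at 17.1 ± 3.09, overlapping S100P and above it in 4 of 5 libraries. S100P was above S100A4 at 14 ± 2.79 at 1:10000, and in control below both S100A4 at 34.6 ± 4.48 and S100A13 at 11.5 ± 0.364. S100A2 was last in each group.

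The summed level of the 9 genes was 2285 ± 150 CPM at 1:10000, 1974 ± 174 CPM at 1:40000 and 2507 ± 176 CPM in control (SD, n = 5 each). S100A10 made up 44.7% of that sum at 1:10000, 47.3% at 1:40000 and 56.6% in control, and S100A14 made up 25.2%, 23.6% and 18.6% in the same order. S100P made up 2.51% at 1:10000, 0.974% at 1:40000 and 0.101% in control. S100P was thus a small part of the sum in every group and S100A10 the largest. Replicate 1 at 1:40000 was the lowest of its group for 7 of the 9 genes and the highest for S100P, and replicate 1 of control was the lowest of its group for 5.

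**Figure D4:**
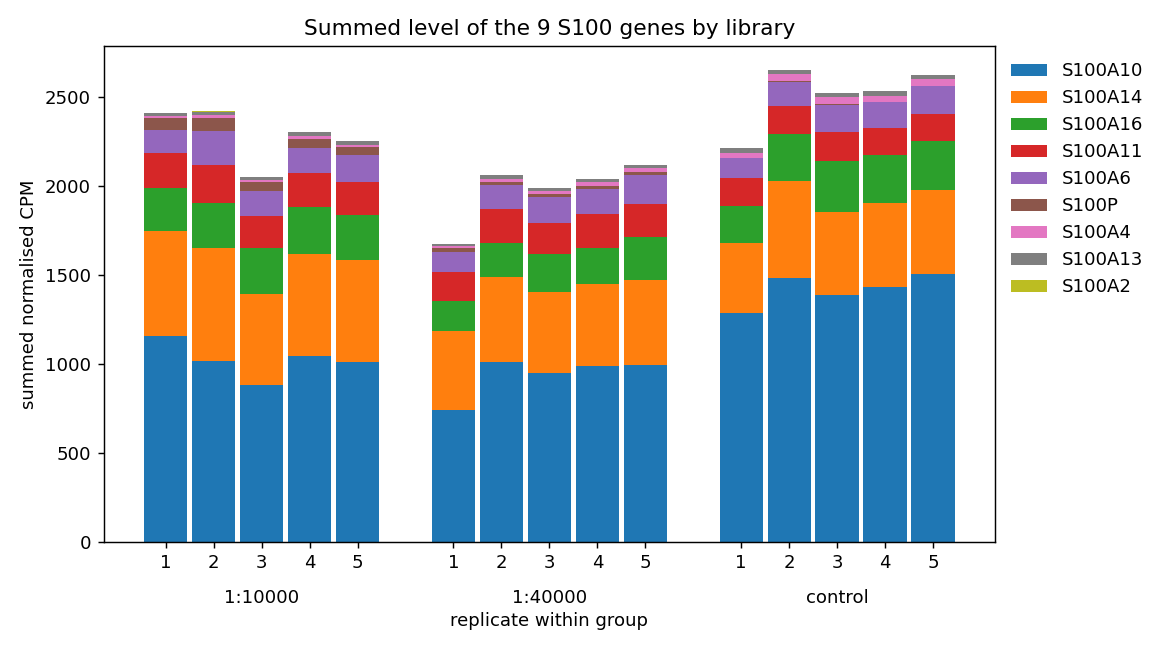
Stacked bars give the summed normalised CPM of the 9 S100 genes in each library, grouped as 1:10000, 1:40000 and control with replicates 1 to 5 from left to right, 1 colour per gene. S100A10 at the base is the largest part in all 15 libraries, replicate 1 at 1:40000 is the shortest bar, and S100P is visible as a band at 1:10000 (2.51% of the sum on average).

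The remaining S100 genes were scarce. Of 12 others in the files, 1 passed the filter: S100A1, a calcium sensor of heart and muscle whose gene overlaps S100A13 on the opposite strand. It held 0.585, 0.814, 2.27, 2.75 and 2.02 CPM at 1:10000, 2.67, 6.49, 4.45, 5.13 and 5.12 CPM at 1:40000, and 3.40, 4.99, 5.55, 5.64 and 4.52 CPM in control. It fell at 1:10000 relative to 1:40000 by 1.35 ± 0.31 on the log2 scale with an adjusted p of 0.00065, with 1 overlapping pair of libraries at the boundary, and S100A13 did not follow it, being higher at 1:10000. S100A7A, S100A7L2, S100A8, S100A12, S100B and S100G had 0 counts in all 15 libraries, which allows a level of up to 0.0872 CPM at 1:10000, 0.0135 CPM at 1:40000 and 0.0711 CPM in control, taking 3 counts over a group as the limit (counting error only). S100A3, S100A5, S100A7, S100A9 and S100Z stayed under 1 CPM on average in each group.

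Of 22 genes for proteins that S100 members bind, 19 were tested. Between the dilutions 9 were called higher and 7 lower at 1:10000, and against control 11 were called higher and 5 lower at 1:10000 and 3 higher and 5 lower at 1:40000, beside 57.3, 71.0 and 52.1% of all genes called in the same comparisons. Both counts called higher at 1:10000 include TRPV6, whose test is not used, for the reason given below. The median log2 fold change of the 19 was 0.17 between the dilutions, 0.21 at 1:10000 against control and 0.04 at 1:40000 against control. ANXA2, the annexin bound by S100A10, averaged 1062 ± 88.9 CPM at 1:10000, 656 ± 11.1 CPM at 1:40000 and 737 ± 69.5 CPM in control (SD, n = 5 each). It rose at 1:10000 relative to 1:40000 by 0.69 ± 0.07 (SE) on the log2 scale with an adjusted p of 2.86e-09, a comparison in which S100A10 was not called. ANXA1, the annexin bound by S100A11, averaged 36.5 ± 3.19 CPM at 1:10000, 6.73 ± 1.03 CPM at 1:40000 and 4.94 ± 0.975 CPM in control, and rose between the dilutions by 2.47 ± 0.12 with an adjusted p of 6.81e-14.

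The partners of S100A4 did not share a direction. MYH9, the heavy chain of non-muscle myosin IIA, averaged 744 ± 49.3 CPM at 1:10000, 967 ± 78.7 CPM at 1:40000 and 989 ± 61.5 CPM in control, and fell between the dilutions by 0.38 ± 0.06 with an adjusted p of 1.67e-05. MYH10, the heavy chain of non-muscle myosin IIB, averaged 80.9 ± 10.1 CPM at 1:10000, 151 ± 6.04 CPM at 1:40000 and 167 ± 10.9 CPM in control, and fell by 0.90 ± 0.07 with an adjusted p of 1.78e-10. PPFIBP1, which encodes the scaffold liprin beta 1, rose by 1.46 ± 0.07 with an adjusted p of 1.23e-14, to 269 ± 13.3 CPM at 1:10000, against 97.4 ± 6.46 CPM at 1:40000.

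EZR, encoding the membrane linker ezrin that S100P binds, rose between the dilutions by 0.57 ± 0.06 with an adjusted p of 1.27e-08. IQGAP1, a scaffold that S100P also binds, rose by 0.31 ± 0.05 with an adjusted p of 2.84e-05. Against control, EZR was 0.32 ± 0.06 at 1:10000 and -0.25 ± 0.06 at 1:40000. IQGAP1 was 0.20 ± 0.05 and -0.11 ± 0.05 in that order, not called at 1:40000. Unlike S100P, neither gene was thus above control at 1:40000. TRPV6, the epithelial calcium channel carried to the membrane by S100A10 with annexin A2, averaged 4.66 ± 0.817 CPM at 1:10000, 0.348 ± 0.301 CPM at 1:40000 and 0.156 ± 0.280 CPM in control, on 157, 125 and 7 counts per group in that order. It passed the filter on low counts through the 1:10000 group, where it is high, so its test is not used. AHNAK, the large scaffold of the S100A10 and annexin A2 complex, was 915 ± 91.3 CPM at 1:10000, 958 ± 130 CPM at 1:40000 and 866 ± 74.1 CPM in control, with a log2 fold change between the dilutions of -0.07 ± 0.08 and an adjusted p of 0.514.

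**Figure D5:**
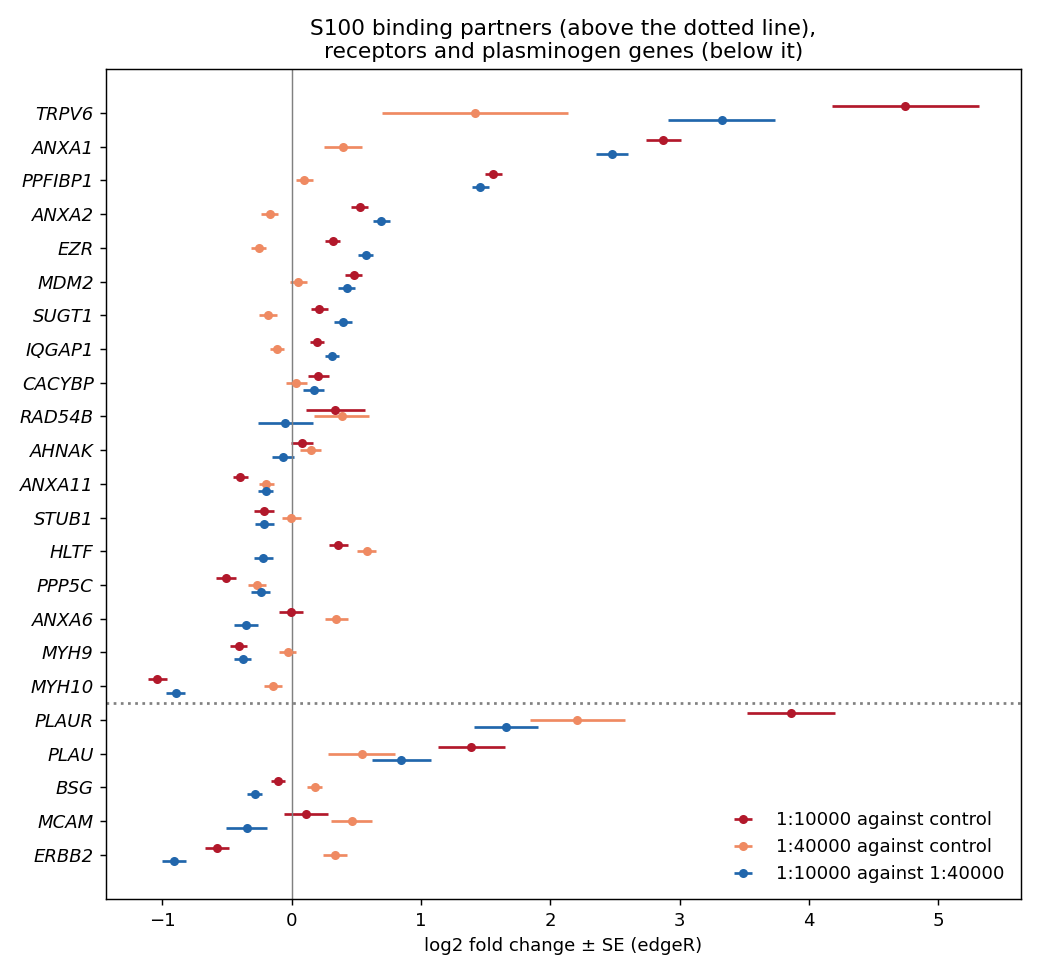
Log2 fold change ± SE (edgeR) on the horizontal axis for 18 tested genes of S100-binding proteins (above the dotted line) and 5 tested receptor and plasminogen genes (below it), with 1:10000 against control in red, 1:40000 against control in orange and 1:10000 against 1:40000 in blue. Of the genes drawn, TRPV6, which is low outside 1:10000 and whose test is not used, lies furthest right between the dilutions (3.32). ANXA1 and PLAUR follow (2.47 and 1.65), and ERBB2 and MYH10 lie furthest left (-0.91 and -0.90).

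Of 12 genes for S100 receptors and for the plasminogen system that S100A10 serves, 6 were tested. AGER, which encodes the receptor for advanced glycation end products, was not tested and held 33 counts in control and 0 at each dilution. Between the dilutions 3 of the 6 were called higher and 2 lower at 1:10000, where 57.3% of all genes were called. Against control 3 were called higher and 1 lower at 1:10000, beside 71.0% of all genes, and 4 were called at 1:40000, each of them higher, beside 52.1%. PLAUR, the receptor of urokinase, averaged 8.21 ± 3.00 CPM at 1:10000, 2.61 ± 0.805 CPM at 1:40000 and 0.600 ± 0.189 CPM in control (SD, n = 5 each) with no overlap between any groups, and rose between the dilutions by 1.65 ± 0.25 (SE) on the log2 scale with an adjusted p of 3.82e-06. PLAU, or urokinase, rose by 0.85 ± 0.23 with an adjusted p of 0.00288, to 3.70 ± 0.786 CPM at 1:10000, against 1.99 ± 0.391 CPM at 1:40000. BSG, encoding basigin, a receptor of S100A9, fell by 0.28 ± 0.06 with an adjusted p of 0.00015, and ERBB2, a receptor tyrosine kinase, fell by 0.91 ± 0.09 with an adjusted p of 5.52e-08. MCAM, a cell adhesion receptor, stood at 4.96 ± 0.648 CPM at 1:10000 and 6.30 ± 0.886 CPM at 1:40000, an adjusted p of 0.0608.

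Calcium sensors outside the family gave 2 called higher and 5 called lower of 16 tested between the dilutions, beside 57.3% of all genes called, with a median log2 fold change of -0.11. Against control 3 were called higher and 6 lower at 1:10000, beside 71.0% of all genes, and 3 higher and 8 lower at 1:40000, beside 52.1%. CALM3, 1 of the genes for calmodulin, averaged 373 ± 12.3 CPM at 1:10000, 735 ± 32.2 CPM at 1:40000 and 876 ± 59.4 CPM in control (SD, n = 5 each), and fell between the dilutions by 0.98 ± 0.06 with an adjusted p of 5.41e-13. CALM2, which encodes the same protein, had a log2 fold change of 0.02 ± 0.07 with an adjusted p of 0.851. CETN2, a centrin of the centriole, fell by 0.97 ± 0.10 with an adjusted p of 9.11e-09, whereas CALU, the endoplasmic reticulum protein calumenin, was -0.11 ± 0.06 with an adjusted p of 0.114 and PDCD6 was -0.60 ± 0.30 with an adjusted p of 0.0853.

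Genes beside the S100 cluster on chromosome 1 were called in both directions. Of 16 tested, 4 were called higher and 3 lower between the dilutions, beside 57.3% of all genes, with a median of 0.07. Against control 5 were called higher and 7 lower at 1:10000 and 3 higher and 6 lower at 1:40000, beside 71.0 and 52.1% of all genes. The 4 called higher between the dilutions include INTS3, and both counts called lower against control include INTS3 and SLC27A3. INTS3 held 17 and 23 counts in all at 1:10000 and 1:40000, and SLC27A3 held 5 and 11. Both genes passed the filter on low counts through control, where they are high, so their tests are not used. ILF2, MRPL9 and CHTOP, the most abundant, had log2 fold changes between the dilutions of 0.28 ± 0.06, 0.24 ± 0.07 and 0.09 ± 0.06 with adjusted p of 0.000459, 0.0036 and 0.229. INTS3 held 0.518 ± 0.591 CPM at 1:10000 and 0.235 ± 0.377 CPM at 1:40000, against 40.3 ± 3.73 CPM in control, SLC27A3 held 0.144 ± 0.0906 and 0.0766 ± 0.0803 CPM against 10.3 ± 1.76 CPM, and GATAD2B 1.52 ± 0.261 and 1.42 ± 0.708 CPM against 9.53 ± 1.07 CPM. These 3 neighbours were close to absent or far lower in the rinse aid files, which differ from control in exposure, aligner and annotation. These differences cannot be told apart, and whether the same bears on S100 genes was not tested. The identifier of each of the 9 S100 genes had the same version in both sets of files. NPR1, a natriuretic peptide receptor, was 2.86 ± 0.879 CPM at 1:10000, 2.37 ± 0.645 CPM at 1:40000 and 1.30 ± 0.537 CPM in control.

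Around S100P on chromosome 4, 11 of 14 neighbours were tested, and 4 were called higher and 4 lower between the dilutions, beside 57.3% of all genes, with a median of -0.12. Against control 2 were called higher and 3 lower at 1:10000, and 2 higher and 6 lower at 1:40000, beside 71.0 and 52.1% of all genes. PSAPL1, a saposin-like gene, rose between the dilutions by a log2 fold change of 1.323 ± 0.08 with an adjusted p of 2.3e-12, to 69.1 ± 7.42 CPM at 1:10000, against 27.2 ± 1.79 CPM at 1:40000, but its control level of 33.0 ± 2.91 CPM lay above that at 1:40000, unlike S100P. AFAP1, an actin filament linker, averaged 70.1 ± 4.57 CPM at 1:10000, 58.4 ± 3.49 CPM at 1:40000 and 44.8 ± 2.98 CPM in control and rose between the dilutions by 0.25 ± 0.07 with an adjusted p of 0.00294. KIAA0232 fell by 1.08 ± 0.11 with an adjusted p of 6.96e-09 and SORCS2 by 1.27 ± 0.22 with an adjusted p of 4.81e-05. MRFAP1 and TBC1D14 had log2 fold changes of 0.13 ± 0.06 and -0.14 ± 0.06 with adjusted p of 0.0724 and 0.0507.

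The genes whose pattern over the 15 libraries was most like that of S100P were ranked by the root mean square difference of log2(CPM + 0.5) after subtracting the control mean, among 9965 protein-coding genes averaging at least 5 CPM. They were NIBAN1 at 0.58, CSNK2A3 at 0.61, DDIT3 at 0.70 and CEACAM5 at 0.74. NIBAN1, a stress-responsive regulator of translation, averaged 21.1 ± 4.58 CPM at 1:10000, 8.45 ± 0.991 CPM at 1:40000 and 0.402 ± 0.287 CPM in control (SD, n = 5 each). CSNK2A3 is a near copy of the kinase gene CSNK2A1, so its levels of 19.7 ± 3.29 CPM at 1:10000, 13.8 ± 1.96 CPM at 1:40000 and 0.631 ± 0.287 CPM in control are uncertain. DDIT3, the stress transcription factor CHOP, averaged 88.8 ± 9.45 CPM at 1:10000, 46.5 ± 10.8 CPM at 1:40000 and 8.84 ± 0.999 CPM in control. CEACAM5, the carcinoembryonic antigen of intestinal epithelium, averaged 19.9 ± 4.10 CPM at 1:10000, 8.99 ± 3.13 CPM at 1:40000 and 1.43 ± 0.927 CPM in control. The measure was applied to these libraries alone and says nothing of shared control. It uses levels relative to the control libraries, where exposure cannot be told apart from aligner and annotation.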

How the data were processed

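Messenger RNA of Caco-2 cells was measured by polyadenylated RNA sequencing in 3 groups of 5 libraries, per the labels. Each deposited file holds 1 library as raw counts by Ensembl gene. Tools listed in the submitters' processing notes, with no role or order, are DESeq2 1.32.0, featureCounts, STAR 2.7.9a and cutadapt, on build GRCh38. Per the file headers RNA STAR produced the files of the controls and HISAT2 those of both dilutions. The annotation release and strand setting are not given in the sources used here.

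Files were matched on the Ensembl identifier, its version left off: 60557 identifiers were shared, 48 occurred only in control files and 941 only in rinse aid files, and 3798 shared ones differed in version. The model was fitted in R 4.3.3 with edgeR 4.0.16 to all 15 libraries (TMM scaling, filterByExpr by group, 3 group means, robust quasi-likelihood test). Benjamini-Hochberg adjustment covered all 13157 genes within each of 3 comparisons, and calls needed an adjusted p under 0.05. SEs are approximate: the size of the log2 fold change over the square root of F. The fit was tested on simulated data. Alternatives were DESeq2 1.42.0, other scalings, no filter, a replicate block, fewer libraries and fewer genes. Coordinates and exon lengths came from GENCODE 29, promoters from RefSeq on GRCh38.p14. No 2 libraries of the same group agreed within sampling noise. Limits from a count of 0 cover counting error only.

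The S100 genes, the gene lists and the tests were chosen with earlier results of these data known. Named genes are all 9 S100 genes, other S100 genes reaching 1 CPM in a group, the 3 most abundant tested genes of each list, list genes called with an absolute log2 fold change of at least 1, and the 4 protein-coding genes most like S100P, leaving out genes at least 32-fold from control in both rinse aid groups. EZR, IQGAP1 and AGER were added after their values were seen. Part of the named list genes is not reported here.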

Additional observations from a re-analysis of the deposited data

Results flagged for a closer look

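Of 27 sets of 5 library levels (9 S100 genes in 3 groups), 4 held a library far from the other 4 by Dixon's test, which flags about 1 set in 20 by chance. S100A4 at 12 CPM and S100A10 at 742 CPM were both low in replicate 1 at 1:40000, the deepest library, with 172092447 counts. S100A2 at 0.764 CPM in replicate 2 at 1:40000 rested on 2 counts in the shallowest library. S100A13 at 23.2 CPM was high in replicate 4 at 1:10000.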

How the results depend on the processing

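Of 536 values recomputed under alternatives, 530 kept their direction and side of the threshold (between the dilutions) or moved by less than the spread (against control). The spread was the SD among libraries within groups, a wide limit where 1 of 5 libraries is left out, so that count alone says little. S100P between the dilutions gave log2 fold changes from 1.497 to 1.68 and adjusted p from 6.27e-24 to 2.01e-07 over 23 alternatives. The levels of S100P at both dilutions entered its choice, so none of these p-values is an independent test. Genes called ranged over all alternatives from 8243 to 10392 at 1:10000 against control, from 6003 to 7425 at 1:40000 against control and from 6593 to 8012 between the dilutions. Leaving out 1 library at a time gave 9053 to 9555, 6254 to 6971 and 7075 to 7624 in that order, and 4 to 5 S100 genes called between the dilutions. S100A4 between the dilutions passed without replicate 1 at 1:40000 (-0.44, adjusted p = 0.00404) and with the 3 libraries at 1:40000 left after removing the deepest and the shallowest (-0.44, adjusted p = 0.00552). With those 3 libraries S100A6 turned to -0.00845 (adjusted p = 0.96). With no filter on low counts S100A13 was 0.27 (adjusted p = 0.075) and S100A11 at 1:40000 against control was 0.29, and 3 S100 genes were called between the dilutions. That setting tested 30969 genes, moved the median log2 fold change of all genes to 0.16 at 1:40000 against control and to -0.21 between the dilutions, and made 60.5% of calls at 1:40000 against control higher, where 50.1% were higher with the filter. The causes were not tested.

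Groups share replicate numbers 1 to 5, but nothing in the labels says that a number marks a shared batch. Between the dilutions, same-numbered libraries deviated together with correlations from 0.05 to 0.28, and 3 of 5 correlated best with their own number. With the replicate block, 8012 genes were called between the dilutions against 7542 without it, and S100A4 was called at -0.30 (adjusted p = 0.0181).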
